A study of Mus musculus with 3 samples.

Results

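Of the 18738 genes in the count tables, 8 encode the enzymes that place, copy or remove methyl groups on cytosine in DNA, or the factors that guide them. These 8 are Dnmt1, Uhrf1, Dnmt3a, Dnmt3b, Dnmt3l, Tet1, Tet2 and Tet3. The rule that chose them names the genes by function and uses no measured value, and each is listed in every count table. The choice was made with earlier results of these data known. The cells were fetal ovarian somatic cells (FOSCs) of CD1 mice at E12.5, in the middle of gestation, profiled by 10X Genomics 3′ single-cell RNA sequencing (scRNA-seq) straight after thawing. Each of the 3 frozen lots (lots 26, 29 and 30) pooled the ovaries of the embryos of 10 pregnant mice after the mesonephros had been cut away, and germ and endothelial cells had been depleted by magnetic sorting with antibodies to SSEA1 and CD31. The labels give the lots no treatment or genotype, so the comparisons are between cell types and between phases of the cell cycle inside the lots. The germ-like cells are therefore those that had passed the depletion, and may not stand for all germ cells of the ovary.

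DNA methylation at CpG sites is kept through cell division by DNMT1, which methylates the new strand after replication, guided by UHRF1, a protein that binds half-methylated CpG sites. DNMT3A and DNMT3B set new methylation, helped in germ cells by DNMT3L, which has no activity of its own. TET1, TET2 and TET3 oxidise 5-methylcytosine, and the oxidised base is then lost by dilution at replication or by excision. Mouse germ cells are known for erasing most of their DNA methylation before and shortly after they settle in the gonad, while the somatic cells around them keep theirs. The counts measure messenger RNA only and carry no information on methylation itself.

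The deposited unique molecular identifier (UMI) counts hold 87494974 to 141920060 UMIs per lot, and 28971 of 29103 barcodes passed the cell filters. Of the kept barcodes, 11871 were in clusters named pre-granulosa-like, 6519 stromal-like, 6078 epithelial-like and 1471 germ-like, and the smaller groups used here were endothelial-like cells (349) and a cluster of 135 cells with its top genes S100a8 and S100a9. Germ-like cells came from every lot (748, 337 and 386 in lots 26, 29 and 30), and all 8 germ cell markers were highest in them among these groups. The same marker lists gave the clusters their names, so the marker levels are not a separate check of the names. The somatic names are less sharp, because 1 of 8 markers of the pre-granulosa-like (Runx1), stromal-like (Maf) and epithelial-like (Lgr5) classes was higher in another class. The cluster led by S100a8 and S100a9 held all 8 macrophage markers at their highest level. Its leading genes mixed ones known from neutrophils (S100a8, S100a9, Camp and Ngp) with the macrophage markers Tyrobp, C1qa and C1qb, so it is given no cell type name. A pre-granulosa-like cluster of 3163 cells led by the heat shock genes Hspa1a and Hspa1b had 2901 of its cells from lot 30. The lots also held cells of male gonads. A cluster of 391 cells was named Sertoli, with 285 from lot 29 and 305 holding a Y-linked UMI, and was in no comparison. The paper likewise reports contaminating Sertoli cells in all lots. Of all kept cells, 356, 915 and 93 in lots 26, 29 and 30 held a Y-linked UMI. Among them were 41 pre-granulosa-like, 383 stromal-like, 237 epithelial-like, 29 germ-like and 47 endothelial-like cells, which stayed in the main values. Of 28902 distinct barcodes, 69 occurred in more than 1 lot. Levels are in CPM, a gene's share of all UMIs in a group of cells in 1 lot scaled to a common total, with means ± SD over lots (n = 3). A difference was called at an adjusted p under 0.05 in the quasi-likelihood test of edgeR, adjusted by Benjamini-Hochberg over all genes tested. The lots are separate pools of animals, and the main fit held no term for the lot. Its p-values therefore count shifts shared by the groups of a lot as spread between lots. A fit with the lot as a block was run as an alternative.

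Of the 7 genes that could be tested, 6 differed between germ-like cells and cycling somatic cells, and the same 6 between germ-like and non-cycling somatic cells. Dnmt1 and Tet1 were higher in germ-like cells, Dnmt3a, Dnmt3b and Tet3 were lower, and Uhrf1 lay between cycling and non-cycling somatic cells. Tet2 was not called in either comparison, and Dnmt3l was close to undetected in every cell type. Because most germ-like cells were scored in S or G2/M phase, the somatic cells were split by phase into cells called cycling (S or G2/M, 9934 cells) and cells called non-cycling (G1-like, 14305 cells). These names stand for calls from a score of phase genes and not for a measure of division. In lots 26, 29 and 30, 3.71%, 11.5% and 0.916% of the cycling somatic cells held a Y-linked UMI. The shares of the non-cycling somatic cells were 0.723%, 2.61% and 0.218%. At these sizes 76.0% of the 15049 genes tested were called between germ-like and cycling somatic cells (36.2% higher and 39.8% lower in germ-like cells), and 78.9% against non-cycling somatic cells (38.1% higher and 40.8% lower). The call alone therefore does not set the enzymes apart from other genes.

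**Figure D1:**
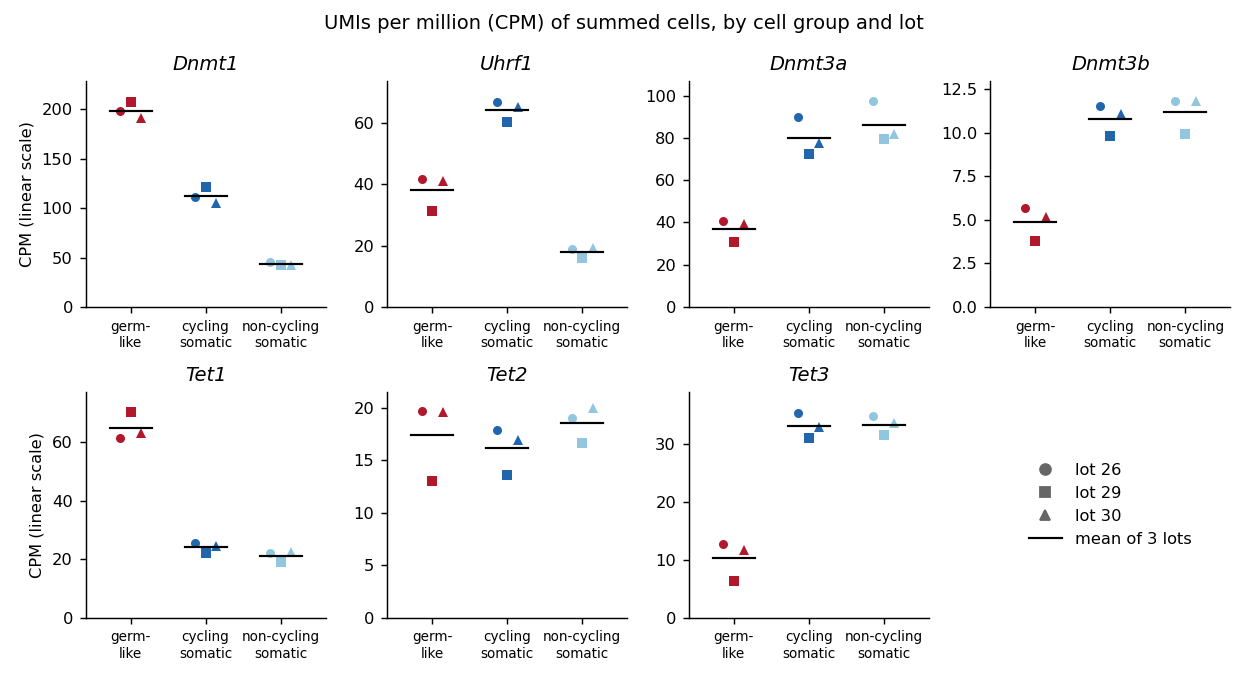
CPM of 7 methylation and demethylation genes (y axes, linear, each from 0) in germ-like, cycling somatic and non-cycling somatic cells, with 1 point per lot and a bar at the mean of the 3 lots. Dnmt1 and Tet1 were highest in germ-like cells in every lot, Tet3, Dnmt3a and Dnmt3b were lowest there, Uhrf1 lay between the somatic groups, and the points of Tet2 overlapped.

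Dnmt1, the maintenance methyltransferase, had 198, 208 and 191 CPM in the germ-like cells of lots 26, 29 and 30, against 112, 121 and 105 CPM in cycling and 45.5, 43.0 and 42.8 CPM in non-cycling somatic cells. The 3 groups did not overlap, and the order was the same in each lot. The log2 fold change of germ-like over cycling somatic cells was 0.80 ± 0.10 (SE; adjusted p = 1.39e-05, edgeR), and over non-cycling somatic cells it was 2.18 ± 0.10 (adjusted p = 5.63e-09, edgeR). Dnmt1 spans chr9:20907209-20959888 on the minus strand of GRCm38, and the 3′ counts add up all its transcripts, so an oocyte form and the somatic form cannot be told apart.

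Uhrf1 (chr17:56303321-56323486, plus strand), which brings DNMT1 to newly replicated DNA, had 41.5, 31.4 and 41.1 CPM in germ-like cells of lots 26, 29 and 30. It had 66.9, 60.4 and 65.3 CPM in cycling somatic cells, all above the germ-like values, and 19.1, 15.8 and 19.2 CPM in non-cycling somatic cells, all below them. The difference thus had opposite signs by the somatic group used. Germ-like cells were lower than cycling somatic cells by a log2 fold change of -0.77 ± 0.09 (adjusted p = 1.60e-05, edgeR) and higher than non-cycling ones by 1.07 ± 0.10 (adjusted p = 1.01e-06, edgeR). Both maintenance genes were higher in cycling than in non-cycling somatic cells, whereas the germ-like cells had Dnmt1 above and Uhrf1 below the cycling somatic level.

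The stretches before the start sites of Dnmt1 and Uhrf1, the pair that was higher in cycling than in non-cycling somatic cells, are shown because E2F-type letters were found in both and in no other of the 8 genes. E2F factors are known to act on genes of DNA replication. The letters searched on both strands were TTTCCCGC, TTTCGCGC, TTTGCCGC and TTTGGCGC, in RefSeq promoters from 250 bases before to 50 bases after each listed start (GRCm38.p6). At least 1 promoter with a match was held by 2.605% of 27025 genes with a listed promoter, and by 3.74% of the 13738 of them in the count tables. All the letters searched contain CG, and the matching Dnmt1 and Uhrf1 promoters hold 33 CpG each. The median over all listed promoters is 7, and these shares are not matched for CpG. The Dnmt1 start used, 1 of 3 listed, has a match at position -219 from the start on the reverse strand and another (TTTGGCGC) at position 33, and its upstream bases lie at chr9:20952624-20952873 on the minus strand. The Uhrf1 start, 1 of 2 listed, has a match at position -185, within chr17:56304063-56304312 on the plus strand. Both stretches lie inside the annotated span of their gene, downstream of its other listed promoters. Those are at chr9:20952930-20953229 and chr9:20959839-20960138 for Dnmt1 and at chr17:56303087-56303386 for Uhrf1. The bases shown may therefore include transcribed or coding sequence of transcripts from those starts, and positions count from the start used only. A match is a description of letters and not a binding site. The 250 bases before each start, written 5′ to 3′ on the gene's strand with the match in capitals, read:
Dnmt1: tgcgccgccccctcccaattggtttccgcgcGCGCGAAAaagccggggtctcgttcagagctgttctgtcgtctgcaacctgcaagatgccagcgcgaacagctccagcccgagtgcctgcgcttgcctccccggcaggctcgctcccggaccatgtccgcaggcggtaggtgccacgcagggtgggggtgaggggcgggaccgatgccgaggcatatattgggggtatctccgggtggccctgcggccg
Uhrf1: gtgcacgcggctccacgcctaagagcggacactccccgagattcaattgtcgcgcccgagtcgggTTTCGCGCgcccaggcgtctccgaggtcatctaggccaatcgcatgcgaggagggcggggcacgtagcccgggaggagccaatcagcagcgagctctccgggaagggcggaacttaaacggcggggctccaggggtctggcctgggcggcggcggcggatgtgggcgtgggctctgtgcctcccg

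The de novo methyltransferase gene Dnmt3a (chr12:3806007-3914443, plus strand) had 40.6, 31.0 and 39.2 CPM in germ-like cells of lots 26, 29 and 30, against 89.7, 72.2 and 77.4 CPM in cycling and 97.5, 79.2 and 82.0 CPM in non-cycling somatic cells. Its log2 fold change was -1.12 ± 0.10 against cycling (adjusted p = 1.45e-06, edgeR) and -1.22 ± 0.10 against non-cycling somatic cells (adjusted p = 5.97e-07, edgeR). Dnmt3b (chr2:153649450-153687730, plus strand), its paralog, was scarcer, with 5.66, 3.80 and 5.14 CPM in germ-like cells and 11.6, 9.84 and 11.1 CPM in cycling somatic cells. Its fold changes were close to those of Dnmt3a, at -1.13 ± 0.13 (adjusted p = 1.09e-05, edgeR) and -1.17 ± 0.13 (adjusted p = 7.00e-06, edgeR), although its germ-like value rests on 179 UMIs in all. For both genes every germ-like sum was below every somatic sum, while the cycling and non-cycling somatic sums overlapped. Within each lot, Dnmt3a was lower in cycling than in non-cycling somatic cells.

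Dnmt3l (chr10:78041947-78063622, plus strand), the inactive partner of the de novo enzymes, was found as 6 UMIs in 6 of the 28971 cells. None was in the 1471 germ-like cells, where a count of 0 in 34797822 UMIs allows up to 0.0862 CPM (3 counts over the group, counting error only). The gene did not pass the low-count filter of any comparison, and overlaps Aire, a gene on the other strand that is also counted, over 1664 bases.

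Among the oxidising enzymes, Tet1 (chr10:62804570-62908996, minus strand) was the one that was higher in germ-like cells. It had 61.5, 70.3 and 63.1 CPM in germ-like cells of lots 26, 29 and 30, against 25.4, 22.3 and 24.4 CPM in cycling and 22.1, 19.1 and 22.5 CPM in non-cycling somatic cells, with no overlap between germ-like and somatic sums. Its log2 fold changes were 1.41 ± 0.09 (adjusted p = 1.23e-07, edgeR) and 1.60 ± 0.09 (adjusted p = 3.65e-08, edgeR).

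Tet3 (chr6:83362373-83459084, minus strand), which is known for its maternal supply to the egg, showed the reverse. Its germ-like sums held 12.8, 6.43 and 11.7 CPM and its cycling somatic sums 35.5, 31.1 and 33.1 CPM, a log2 fold change of -1.65 ± 0.15 (adjusted p = 1.15e-06, edgeR). The non-cycling somatic sums of Tet3, at 34.9, 31.6 and 33.7 CPM, gave the same size of difference (-1.65 ± 0.15, adjusted p = 9.70e-07, edgeR). Lot 29, the shallowest lot, had the lowest germ-like value of Tet3 and also of Uhrf1, Dnmt3a, Dnmt3b and Tet2.

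Tet2 (chr3:133463679-133545139, minus strand), the enzyme of the family that lacks the CXXC DNA-binding domain, had 19.7, 13.0 and 19.6 CPM in germ-like, 17.9, 13.6 and 17.0 CPM in cycling somatic and 19.1, 16.6 and 19.98 CPM in non-cycling somatic cells. These sums overlapped, and neither fold change was called by edgeR. It was 0.11 against cycling (95% interval of the fit -0.15 to 0.37, adjusted p = 0.454) and -0.08 against non-cycling somatic cells (-0.34 to 0.18, adjusted p = 0.588). The intervals leave room for a difference of up to their bounds in either direction.

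RNA from other cells in the droplets bears on the low values. The 8 germ cell markers stood in the 3 large somatic classes at a median of 0.641% of their germ-like level. The 24 markers of those classes stood in germ-like cells at a median of 6.44% of the level in their own class (range 3.58% to 41.1%). The highest share was that of Msln, which was scarce in both (0.201 CPM in germ-like and 0.489 CPM in epithelial-like cells). The germ-like level was 0.318 of the cycling somatic level for Tet3, 0.456 for Dnmt3b and 0.460 for Dnmt3a by the fitted fold. These ratios are to cycling cells of the 3 classes together, and those of the markers to 1 class, so they are unlike measures. How much of their germ-like signal came from other cells was not tested. Scrublet called 13.4% of the germ-like cells doublets, and the 6 calls in each comparison were also made with called doublets left out.

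CPM is a share of a group's UMIs, and germ-like cells held more UMIs than somatic cells, with medians of 18134 to 23767 per lot against 10532 to 13824 in cycling and 7929 to 10662.5 in non-cycling somatic cells. Counted per cell, Uhrf1 had 0.899 ± 0.228 UMIs in germ-like and 0.901 ± 0.170 in cycling somatic cells, so its lower share went with an equal mean number of UMIs per cell. Dnmt1 had 4.63 ± 0.37 UMIs per germ-like cell against 1.56 ± 0.12 per cycling somatic cell, and Tet1 1.51 ± 0.10 against 0.338 ± 0.067. Tet3 was lower per cell (0.247 ± 0.101 against 0.466 ± 0.088). Within each lot Dnmt3a was lower per germ-like cell too, with 0.979, 0.629 and 1.01 UMIs against 1.31, 0.845 and 1.21 per cycling somatic cell in lots 26, 29 and 30, and so was Dnmt3b (0.136, 0.0772 and 0.132 against 0.169, 0.115 and 0.173). These counts per cell were not tested, and more RNA per cell and a better capture cannot be told apart.

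**Figure D2:**
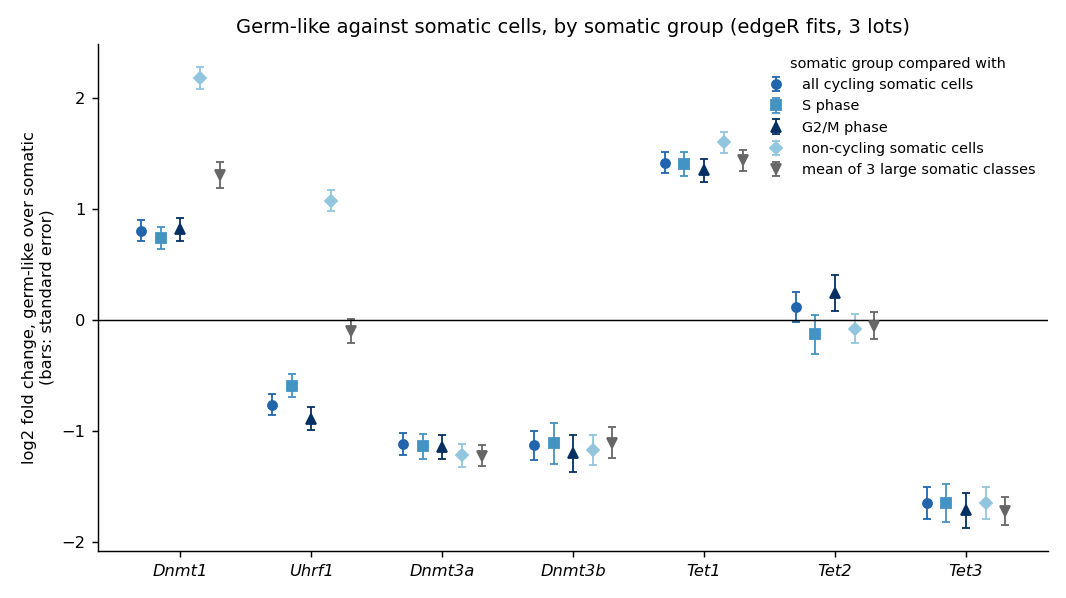
Log2 fold change of germ-like over somatic cells (y axis, points, with bars for the standard error of the edgeR fit) for 7 genes against 5 somatic groups. Dnmt1, Tet1, Dnmt3a, Dnmt3b and Tet3 kept their sign against every group, and Uhrf1 was below 0 against cycling groups above 0 against non-cycling cells, and close to 0 against the mean of the classes.

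Germ-like cells were then set against somatic cells with the same phase call. With the phase scores of all cells on a common scale, 827 germ-like cells were called G2/M, 629 S and only 6 G1-like, so germ-like cells could be compared with somatic cells in S and in G2/M but not in G1-like phase. In S phase 73.5% of 14613 genes were called. Dnmt1 (0.74 ± 0.10) and Tet1 (1.41 ± 0.11) were higher and Dnmt3a (-1.14 ± 0.11), Dnmt3b (-1.12 ± 0.19), Uhrf1 (-0.59 ± 0.10) and Tet3 (-1.65 ± 0.17) lower in germ-like cells, with adjusted p from 6.15e-09 (Tet1) to 6.41e-05 (Uhrf1). In G2/M phase, where 73.5% of genes were called as well, the same 6 genes passed in the same direction, from -1.72 ± 0.16 for Tet3 to 1.35 ± 0.10 for Tet1. Tet2 differed by 0.24 ± 0.16 in G2/M phase (adjusted p = 0.182, edgeR), which passed with the lot as a block (0.26, adjusted p = 0.0365) and without lot 29 (0.32, adjusted p = 0.0459). Phase is cut from a score, and 20.8% of the 24239 scored somatic cells lay within 0.05 of the cut between G1-like and cycling calls. Of the 1462 scored germ-like cells, 26 did. How many cells lay near the boundary between S and G2/M calls was not counted.

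With phases on the common scale, Uhrf1 differed between the phases of germ-like cells, with 54.8, 41.3 and 49.7 CPM in S phase and 32.7, 25.3 and 34.8 CPM in G2/M phase in lots 26, 29 and 30. Every S-phase sum was above every G2/M sum of Uhrf1. In somatic cells it had 72.4, 69.3 and 71.0 CPM in S, 61.1, 50.5 and 58.7 CPM in G2/M and 19.1, 15.8 and 19.2 CPM in G1-like phase, 3 ranges that did not overlap. Dnmt1 was nearly level between S and G2/M phase in germ-like cells (192 to 212 CPM and 190 to 205 CPM). In the pooled somatic cells it had 109 to 125 CPM in S and 100 to 117 CPM in G2/M phase. The somatic sums differ in makeup, since 1880 of the 5786 S cells were pre-granulosa-like, against 39 of the 4148 G2/M cells. The pooled somatic values of Dnmt1 and Uhrf1 therefore do not show how either gene differs between S and G2/M phase inside a class.

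Within the somatic cells, the pair of maintenance genes differed by phase, and no other enzyme was called in the fit without the lot as a block. Against non-cycling cells, cycling somatic cells had more Dnmt1 (log2 fold change 1.38 ± 0.10, adjusted p = 1.13e-06, edgeR) and more Uhrf1 (1.84 ± 0.09, adjusted p = 5.45e-08, edgeR). In this contrast 36.2% of 15049 genes were called, 18.1% in each direction (5451 genes, or 8756 with the lot as a block). The other fold changes of the cycling over the non-cycling level ran from -0.19 for Tet2 to 0.19 for Tet1, and Tet2 passed with the lot as a block (-0.19, adjusted p = 0.0187). Between S and G1-like phase the log2 fold change was 1.41 ± 0.10 for Dnmt1 and 1.99 ± 0.10 for Uhrf1, where 23.5% of 14613 genes were called (3441, or 7053 with the block).

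The 2 somatic groups differ in their makeup, since 9901 of the 14305 non-cycling cells were pre-granulosa-like, while stromal-like and epithelial-like cells made up most cycling ones (3625 and 4390 of 9934). The same contrast was therefore made inside each class. Dnmt1 and Uhrf1 were higher in the cells called cycling in all 3 classes, by 0.84 ± 0.09 and 0.96 ± 0.13 on the log2 scale in pre-granulosa-like cells, 1.38 ± 0.09 and 2.00 ± 0.13 in stromal-like cells, and 1.13 ± 0.09 and 1.49 ± 0.13 in epithelial-like cells (adjusted p at most 0.000150, edgeR). Of all genes tested, 4.23%, 18.9% and 11.3% were called in these classes (568, 2540 and 1513 of 13437, or 2703, 5283 and 3795 with the lot as a block). In pre-granulosa-like cells Dnmt1 rose from 41.9, 38.3 and 39.4 CPM to 67.8, 69.5 and 69.9 CPM, and 1880 of the 1919 cells called cycling there were S-phase calls, with 39 in G2/M. Whether these cells divide was not measured, and genes that run with the phase score differ by the way the groups were made.

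**Figure D3:**
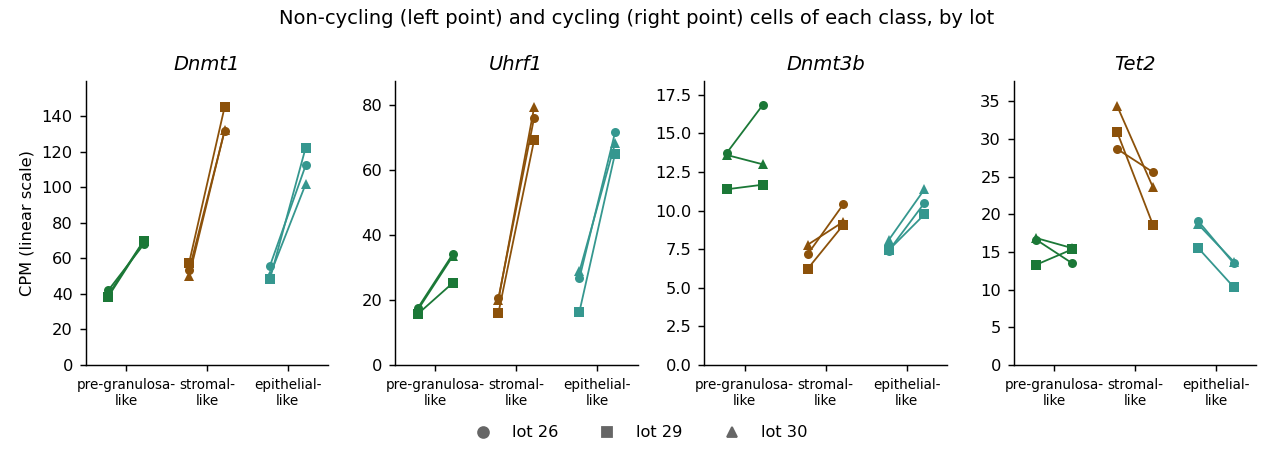
CPM (y axes, linear, from 0) of Dnmt1, Uhrf1, Dnmt3b and Tet2 in the non-cycling (left point) and cycling cells (right point) of the 3 large somatic classes, with 1 line per lot. Dnmt1 and Uhrf1 were higher in cycling cells in every lot and class, Dnmt3b was higher and Tet2 lower in cycling stromal-like and epithelial-like cells, and neither had 1 direction in pre-granulosa-like cells.

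Dnmt3b and Tet2 showed smaller cycling differences in the stromal-like and epithelial-like classes. Dnmt3b was higher in cycling cells by 0.45 ± 0.13 in stromal-like (adjusted p = 0.0188) and 0.47 ± 0.13 in epithelial-like cells (adjusted p = 0.0218, both edgeR). Tet2 was lower, by -0.44 ± 0.12 (adjusted p = 0.0147, edgeR) and -0.50 ± 0.13 (adjusted p = 0.0153, edgeR). With 2 of the 3 lots these calls were mostly lost while the fold changes stayed close. Without lot 26, 29 or 30 Dnmt3b was at 0.39, 0.45 and 0.56 in stromal-like and 0.45, 0.51 and 0.47 in epithelial-like cells, none of them called (adjusted p 0.0605 to 0.221). Tet2 was not called without lot 29 (-0.31, adjusted p = 0.0818) or 30 (-0.39, adjusted p = 0.203) in stromal-like cells, nor without lot 26 (-0.51, adjusted p = 0.125) or 30 (-0.53, adjusted p = 0.162) in epithelial-like cells. Dnmt3a was lower in cycling cells of the 3 classes by 0.15 to 0.18 in the fit with the lot as a block only (-0.15, -0.15 and -0.18, adjusted p = 0.00519, 0.00293 and 0.000810). Without the block its adjusted p was 0.294 to 0.489. Tet3 was not called in stromal-like cells (-0.21 ± 0.08, adjusted p = 0.0839, edgeR), but passed in 5 of 17 alternatives, among them the block (-0.21, adjusted p = 0.0193) and leaving out lot 26 (-0.35, adjusted p = 0.0264).

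Each cell class was then set beside the others with its phases mixed. The fit also held sums of red blood cells (20 to 36 cells per lot) and mesonephric tubule cells (17 to 39 cells per lot). TMM scaling factors of its sums, taken over all genes, ran from 0.193 to 1.46. Germ-like cells had the highest Dnmt1 and Tet1 sums of the 6 groups described here, and pre-granulosa-like cells had the lowest Dnmt1 (46.3, 44.1 and 45.5 CPM) and Uhrf1 (20.3, 17.6 and 20.2 CPM). Against the mean of the 3 large classes (76.7% of 13826 genes called), germ-like cells differed by 1.31 ± 0.12 in Dnmt1, 1.44 ± 0.09 in Tet1, -1.23 ± 0.10 in Dnmt3a, -1.11 ± 0.14 in Dnmt3b and -1.73 ± 0.13 in Tet3, all called. Uhrf1 (-0.10 ± 0.11, adjusted p = 0.412, edgeR) was not, and its sign turned with other scaling, to 0.020 with RLE factors and 0.025 in DESeq2.

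**Figure D4:**
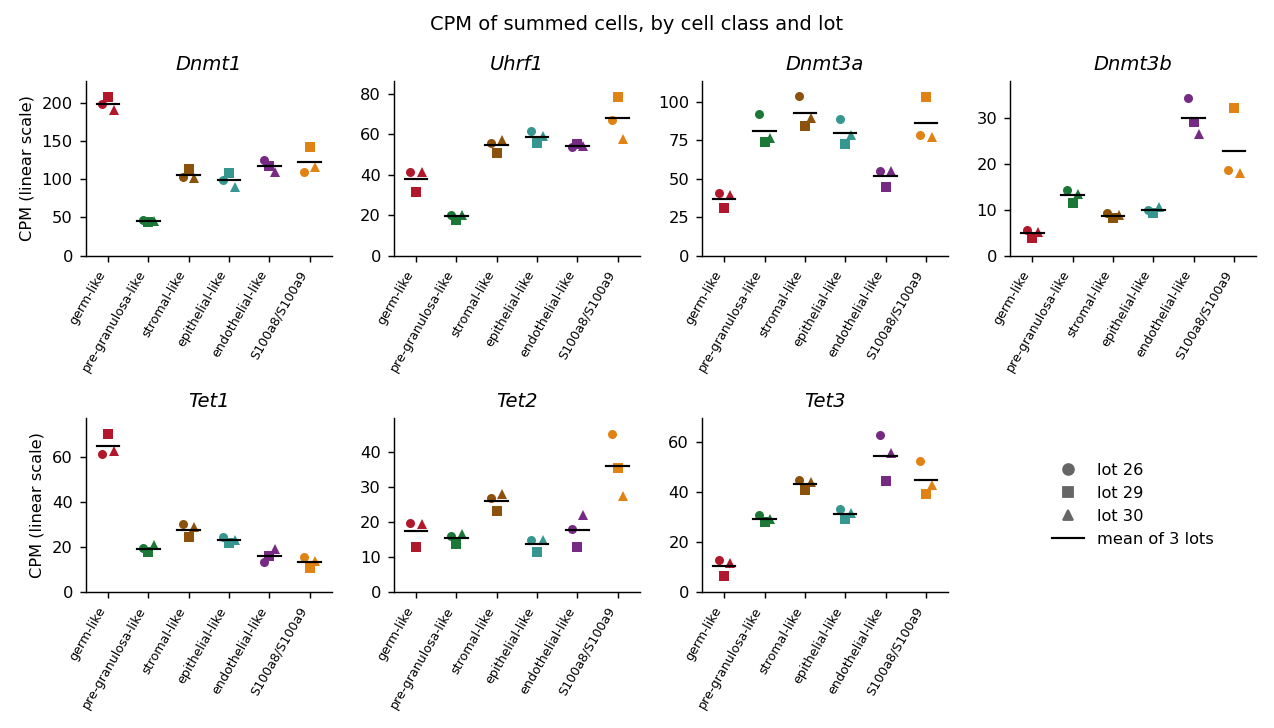
CPM (y axes, linear, from 0) of 7 genes in 5 named cell classes and the S100a8/S100a9 cluster, with 1 point per lot and a bar at the mean of the 3 lots. Germ-like cells led in Dnmt1 and Tet1, endothelial-like cells in Dnmt3b and Tet3 by the mean, the S100a8/S100a9 cluster in Tet2 by the mean, and pre-granulosa-like cells were lowest in Dnmt1 and Uhrf1.

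Endothelial-like cells, of which 349 had escaped the CD31 depletion, held the most Dnmt3b by the mean, at 34.3, 29.1 and 26.4 CPM in lots 26, 29 and 30. This level was above the mean of the 3 large classes by 1.56 ± 0.14 on the log2 scale (adjusted p = 1.78e-09, edgeR; 41.2% of 13826 genes called). Tet3 was higher as well (63.0, 44.6 and 55.7 CPM; 0.70 ± 0.13, adjusted p = 6.00e-05, edgeR), Dnmt1 and Uhrf1 were higher by 0.60 ± 0.13 and 0.47 ± 0.13, and Dnmt3a (-0.69 ± 0.11) and Tet1 (-0.56 ± 0.16) were lower. Lot 26 gave 174 of the cells. Without it Dnmt1 stayed at 0.55 but was not called (adjusted p = 0.0505), and Tet1 went to -0.35 (adjusted p = 0.257). Uhrf1 went to 0.31 without cells holding a Y-linked UMI (adjusted p = 0.110).

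The cluster led by S100a8 and S100a9, with 21 to 68 cells per lot, held the most Tet2 by the mean. Tet2 had 45.4, 35.6 and 27.6 CPM in lots 26, 29 and 30, and was above the mean of the 3 large classes by 1.05 ± 0.20 (adjusted p = 0.000185, edgeR; 34.0% of genes called). Its range met that of stromal-like cells (23.2 to 28.1 CPM). Dnmt3b (0.97 ± 0.23), Uhrf1 (0.72 ± 0.16) and Dnmt1 (0.59 ± 0.16) were also higher and Tet1 lower (-0.73 ± 0.25, adjusted p = 0.0229, edgeR). Without lot 26 the calls of Tet2 (0.76, adjusted p = 0.102), Dnmt1 (0.64, adjusted p = 0.0639) and Tet1 (-0.85) were lost, while Dnmt1 and Tet1 were no smaller. That of Tet1 was lost in 5 of 15 alternatives, also without lot 30 (-0.66, adjusted p = 0.203) and in DESeq2 (-0.59, adjusted p = 0.0975).

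Among non-cycling cells, which were all scored G1-like, the 3 large classes still differed. Dnmt3b was highest in pre-granulosa-like cells, the supporting cells of the later follicle, at 13.8, 11.4 and 13.6 CPM, against 7.41, 7.44 and 8.10 CPM in epithelial-like and 7.19, 6.24 and 7.79 CPM in stromal-like cells. The log2 fold changes were -0.77 ± 0.13 for epithelial-like (adjusted p = 0.000413, edgeR; 41.8% of 13009 genes called) and -0.96 ± 0.12 for stromal-like over pre-granulosa-like cells (adjusted p = 3.97e-05, edgeR; 47.9% called). Tet2 was highest in stromal-like cells (28.7, 30.9 and 34.3 CPM), above pre-granulosa-like by 0.90 ± 0.11 (adjusted p = 2.65e-05, edgeR) and above epithelial-like cells by 0.72 ± 0.12 (adjusted p = 0.000572, edgeR; 35.0% called).

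Tet3 took the same order, with 44.1, 48.0 and 50.4 CPM in non-cycling stromal-like cells and differences of 0.55 ± 0.09 over pre-granulosa-like and 0.47 ± 0.10 over epithelial-like cells, the second of which was lost without lot 30 (0.41, adjusted p = 0.0879). Dnmt1 was higher than in pre-granulosa-like cells in both other classes (0.35 ± 0.08 in epithelial-like and 0.31 ± 0.08 in stromal-like cells), as was Tet1 (0.41 ± 0.12 and 0.45 ± 0.12). The epithelial-like call of Tet1 was lost without lot 26 or 29 (0.26 and 0.36, adjusted p = 0.215 and 0.0993). Uhrf1 was higher in epithelial-like cells (0.53 ± 0.15, adjusted p = 0.0154), a call lost without lot 26 (0.50, adjusted p = 0.116) or lot 30 (0.37, adjusted p = 0.211) and with phases called without thinning (0.32, adjusted p = 0.109). With the lot as a block, Dnmt3a also passed between stromal-like and pre-granulosa-like cells (0.16, adjusted p = 0.00341). So did Uhrf1 between stromal-like and epithelial-like cells (-0.46, adjusted p = 0.00229, against -0.44 and 0.0568 without the block), a difference that passed in 7 of 17 alternatives.

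Because the common scale left almost no germ-like cells in G1-like phase, phases were also scored within germ-like and within somatic cells separately, which put 543 germ-like cells in G1-like, 429 in S and 490 in G2/M phase. These names do not mean the same in both: the summed S-phase list was at 3649 to 3723 CPM in G1-like germ-like cells and at 1474 to 1509 CPM in G1-like somatic cells. In G1-like phase, where 73.6% of 14230 genes were called, germ-like cells had more Dnmt1 (1.88 ± 0.11), Tet1 (1.21 ± 0.11) and Uhrf1 (0.97 ± 0.13) and less Dnmt3a (-0.98 ± 0.12), Dnmt3b (-1.16 ± 0.22) and Tet3 (-1.29 ± 0.17). Tet2 (-0.33 ± 0.17, adjusted p = 0.0936, edgeR) passed with the lot as a block (-0.35, adjusted p = 0.0134), without lot 29 (-0.31, adjusted p = 0.0414) and with no low-count filter (-0.42, adjusted p = 0.0366).

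Between S and G1-like phase of the germ-like cells scored in this way, 3.86% of 14230 genes were called (549, or 1508 with the lot as a block), and 4 of the enzymes were among them. Dnmt1 had 222, 234 and 213 CPM in S and 170, 180 and 154 CPM in G1-like phase in lots 26, 29 and 30 (0.40 ± 0.11, adjusted p = 0.0385, edgeR). Uhrf1 had 56.6, 43.3 and 58.7 against 40.8, 35.5 and 34.3 CPM (0.51 ± 0.14, adjusted p = 0.0436, edgeR). Tet1 had 65.5, 73.9 and 79.6 against 47.9, 56.3 and 51.2 CPM (0.49 ± 0.12, adjusted p = 0.0223, edgeR). None of these 3 genes overlapped between the phases. Tet3 was lower in S phase, with 8.04, 6.32 and 4.93 against 16.5, 6.62 and 16.2 CPM (-1.08 ± 0.26, adjusted p = 0.0208, edgeR), and its ranges met through lot 29. None of the 4 was called without lot 26 or without lot 30, with fold changes of the same sign. Without lot 26 the changes of Dnmt1, Uhrf1, Tet1 and Tet3 were 0.40, 0.54, 0.50 and -1.17 (adjusted p = 0.242 to 0.353), and without lot 30 they were 0.36, 0.38, 0.41 and -0.83 (0.396 to 0.571). Dnmt3a passed with the block only (-0.41, adjusted p = 0.00607, against 0.0857 without it). The change from G1-like to S phase was itself compared between germ-like and somatic cells, where 6.29% of genes were called (895, or 2340 with the block). It was smaller in germ-like cells for Dnmt1 (-1.03 ± 0.15) and Uhrf1 (-1.51 ± 0.18), and lower for Tet3 (-0.99 ± 0.29), the last not without lot 26 (-1.06, adjusted p = 0.333) or lot 30 (-0.73, adjusted p = 0.533).

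The germ-like cells were also compared among themselves, by whether a cell held a UMI of Stra8, the gene that retinoic acid switches on as meiosis begins in the fetal ovary. After thinning every cell to 4000 UMIs, 1089 germ-like cells had such a UMI and 373 had none, and the deposited counts held 796 to 934 CPM of Stra8 in the first group and 120 to 145 CPM in the second. A missing UMI at this depth does not show that a cell lacks Stra8. Tet1 had 52.7, 54.7 and 49.8 CPM in cells with Stra8 and 90.9, 101 and 103 CPM in cells without it in lots 26, 29 and 30, with no overlap (log2 fold change -0.93 ± 0.12, adjusted p = 0.000762, edgeR). Uhrf1 went the other way, with 46.5, 38.8 and 45.5 CPM against 25.2, 16.9 and 27.8 CPM (0.88 ± 0.14, adjusted p = 0.00232, edgeR).

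**Figure D5:**
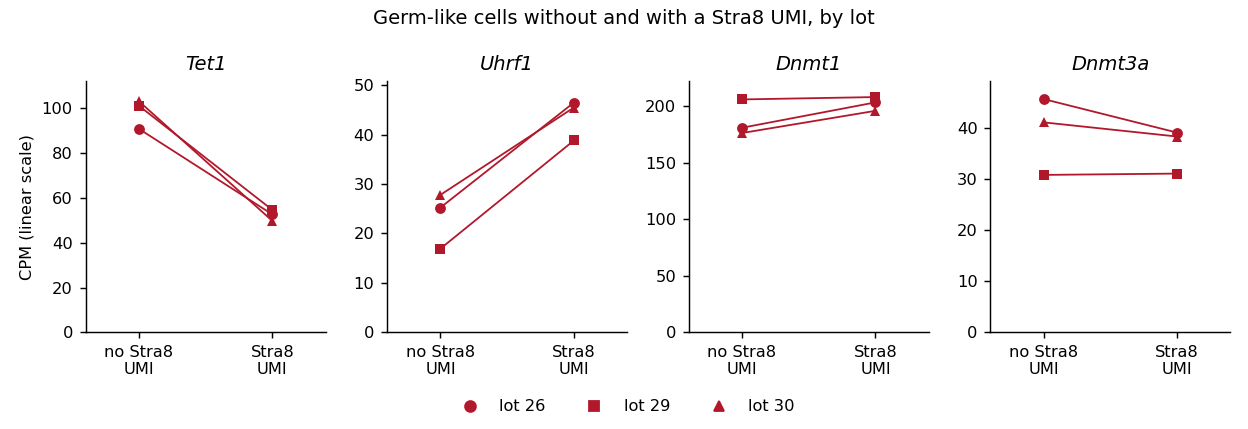
CPM (y axes, linear, from 0) of Tet1, Uhrf1, Dnmt1 and Dnmt3a in germ-like cells without and with a Stra8 UMI after thinning to 4000 UMIs, with 1 line per lot. In every lot Tet1 was lower and Uhrf1 higher in cells with Stra8, while Dnmt1 and Dnmt3a were close to level.

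No other of the 7 tested genes was called by Stra8, where 12.4% of 11522 genes were (1423, or 4176 with the lot as a block). Dnmt1 was at 196 to 208 CPM with Stra8 and 176 to 206 CPM without, a difference of 0.09 with a 95% interval of -0.15 to 0.33. The Uhrf1 call was lost without lot 26 (0.89, adjusted p = 0.0675), whereas Tet1 passed without each lot in turn. Beside these, the summed S-phase list was at 4239 to 4565 CPM with and 4320 to 4498 CPM without Stra8, the G2/M list at 8313 to 8605 CPM and 8700 to 10194 CPM. Cells with a Y-linked UMI were 0% to 1.71% and 2.20% to 7.84%. Pou5f1, a pluripotency gene that germ cells lose at meiosis and that was picked after its values were seen, was at 14.3 to 19.2 CPM with Stra8 and 23.9 to 29.8 CPM without. The part of the phase lists and of Pou5f1 in the Tet1 and Uhrf1 differences was not tested. A fit without the cells holding a Y-linked UMI was among the alternatives, and its values are not given here.

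The partners of the 8 enzymes were also compared between germ-like and cycling somatic cells, where 76.0% of all genes were called (36.2% higher and 39.8% lower in germ-like cells). Of the 7 tested partners of methylation maintenance, 5 were higher and 1 was lower in germ-like cells, with a median log2 fold change of 0.87 against -0.07 over all genes. Hells, the chromatin remodeller LSH, had 1303 ± 94 CPM in germ-like and 192 ± 16 CPM in cycling somatic cells (2.75 ± 0.12). Usp7, a deubiquitinase of DNMT1 and UHRF1 (1.28 ± 0.07), and Lig1, the replicative DNA ligase (1.22 ± 0.08), were higher too. Cdca7l was higher as well (0.87 ± 0.08), whereas its relative Cdca7, a known partner of HELLS, was lower (-1.14 ± 0.11), and Uhrf2, the relative of Uhrf1, was not called (-0.18 ± 0.12, adjusted p = 0.203, edgeR). The last 2 genes were picked after their values were seen. Against non-cycling somatic cells 4 of the 7 were higher and 1 lower (median 1.43), where 78.9% of all genes were called (38.1% higher and 40.8% lower). Between cycling and non-cycling somatic cells the counts were also 4 and 1 (median 0.62), where 36.2% of all genes were called (18.1% in each direction).

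Of the 12 genes of base excision and oxidised-base repair, 7 were higher and 3 lower in germ-like than in cycling somatic cells (median 0.40), a share called near the 76.0% of all genes. Tdg, the glycosylase that removes the products of TET oxidation, was lower (7.15 ± 1.08 against 17.95 ± 1.16 CPM, -1.34 ± 0.14). Ung, which removes uracil (0.87 ± 0.11), Mbd4, which acts on mismatches at CpG (0.66 ± 0.10), and Parp1, which responds to strand breaks (0.52 ± 0.09), were higher. So the oxidising enzyme Tet1 and the excising enzyme Tdg differed in opposite directions. Of the 7 methyl-CpG readers, 2 were higher and 4 lower (median -0.33), also near the share of 76.0%. Among them were Mbd1 (-0.77 ± 0.10), Zbtb4 (-1.27 ± 0.25) and Mbd3, a NuRD subunit (-0.38 ± 0.09), all lower, and Zbtb38 (0.71 ± 0.10), which was higher. Against non-cycling somatic cells Mbd3 (0.13 ± 0.09, adjusted p = 0.212) and Zbtb38 (0.19 ± 0.10, adjusted p = 0.109, both edgeR) were not called.

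Of the 10 regulators of TET and DNMT proteins, 6 were higher and 3 lower (median 0.49), where 76.0% of all genes were called. Dppa3, also called Stella, which is known to bind UHRF1, had 652, 939 and 689 CPM in germ-like cells of lots 26, 29 and 30 and 2.65 to 5.52 CPM in cycling somatic cells, and it is itself a germ cell gene (7.71 ± 0.36). Zfp57, which binds imprinted loci, went the other way, with 4.41 ± 0.22 against 30.2 ± 1.7 CPM (-2.79 ± 0.13). Kdm2b, a CpG-island protein (1.17 ± 0.09), and Setdb1, a histone methyltransferase (0.70 ± 0.08), were higher. Among genes of methyl donor supply, Mthfd1, a folate enzyme (0.35 ± 0.08), and Mtr, the methionine synthase (0.29 ± 0.08), were higher, and Ahcy, which clears the product of methyl transfer (-0.39 ± 0.14), was lower. Against non-cycling somatic cells the sign of Mtr turned (-0.40 ± 0.08, adjusted p = 0.00102, edgeR), and Ahcy was not called (-0.15 ± 0.14, adjusted p = 0.347, edgeR). Every partner named other than Uhrf2 had an adjusted p of at most 0.0265 in edgeR's test of germ-like against cycling somatic cells.

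The genes whose levels ran most like each enzyme were sought over 30 sums of the 4 large classes by phase and lot, with Pearson's r of log2(CPM + 1), leaving out the genes used to score phases. Topbp1 (r = 0.986), Prim2 (0.983) and Lig1 (0.977), all of DNA replication or its checkpoints, were most like Dnmt1, and Gins4 (0.919), Tubg1 (0.913) and Tk1 (0.912) were most like Uhrf1. For Dnmt3a these were Tcf7l2 (0.984), Col4a5 (0.980) and Mbnl2 (0.978), and for Dnmt3b Utp6 (0.927), Gemin7 (0.885) and Mbnl3 (0.879). For Tet1 they were Aspscr1 (0.964), Ifitm3 (0.961) and Spata5 (0.960), and for Tet2 Atf7 (0.873), Gpr107 (0.866) and Phf21a (0.850). Tet3 was most like Amotl1 (0.981), Nynrin (0.980) and 9530068E07Rik (0.980). Among the enzymes themselves, Dnmt3a and Tet3 ran together (r = 0.960) and Dnmt3a and Tet1 apart (r = -0.818), while Dnmt1 and Uhrf1 reached 0.693. The sums share lots and classes, and germ-like cells stand apart in most of these genes, so the values describe likeness and carry no test.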

How the data were processed

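Single-cell RNA of 3 thawed lots of E12.5 CD1 fetal ovarian somatic cells was measured by 10X Genomics 3′ scRNA-seq, 1 deposited table per lot. The deposited values are raw UMI counts per gene and barcode, for which the authors aligned reads to GRCm38 with STAR (version 2.7 in the submitters' processing notes), assigned genes with featureCounts 2.0.1 and counted UMIs with UMI-tools. The annotation release and strand setting are not given in the sources used here, so genes that overlap Dnmt3a, Dnmt3b, Dnmt3l, Tet1, Tet2 or Tet3 are uncertain. All columns of the tables were used (0 left out).

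Barcodes with 200 to 9000 genes and at most 10% mitochondrial UMIs were kept, with a median of 8949 to 11595 UMIs per cell and lot. Cells were clustered without the 8 genes and their partners in Seurat 5.3.0 (2000 variable genes, 50 components, resolution 0.8, 22 clusters) and named by markers, and 2000 cells stayed unnamed. The S100a8/S100a9 cluster of 135 cells is also given no name here, because its leading genes mixed ones known from neutrophils with macrophage markers. Doublets were called with Scrublet in scanpy 1.11.5 and kept in the main values. Phases were scored in Seurat after thinning cells to 4000 UMIs, with Uhrf1 and 3 partners (Ung, Hells and Cdca7) left out of the phase lists, and 229 somatic and 9 germ-like cells under that depth were not scored.

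Raw counts were summed per group and lot and fitted in edgeR 4.0.16 (R 4.3.3; quasi-likelihood test, TMM factors, low-count filter, Benjamini-Hochberg over all genes, 2-sided). DESeq2 1.42.0, RLE factors, total UMIs, no filter, stricter cells, other resolutions, removal of doublets or of cells with a Y-linked UMI, each lot left out, and the lot as a block were alternatives. Sums of a lot come from 1 pool of animals and so are paired: in the phase comparison their deviations correlated in 9 of 9 pairs (median r 0.284), and over the classes in 47 of 84 pairs above 0.1 (median 0.120). On simulated counts of germ-like against cycling somatic cells with 14876 genes, edgeR recovered 48 of 50 genes changed 2-fold and 13 of 50 changed 1.5-fold. Of its calls, 2.48% were false. The simulation changed only 200 genes and drew each sum independently, with no lot effect. In the data 76.0% of genes were called in this contrast and sums of a lot were paired, so these rates may not carry over. Coordinates are those of GENCODE M21 on GRCm38.

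The genes and lists were chosen with earlier results of these data known. The 8 genes were always named, as were up to 4 genes of each partner list with the lowest adjusted p between germ-like and cycling somatic cells and the 3 genes most like each enzyme (mean of at least 20 CPM). Of 43 partners 42 were measured. The result of 1 partner is not reported here. The comparisons within classes, by Stra8 and with phases scored separately, and the alternative without the heat shock cluster, were chosen after seeing the data. The floor of Dnmt3l covers counting error only, and intervals of fold changes come from the standard errors of the edgeR fit over lots.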

Additional observations from a re-analysis of the deposited data

Results flagged for a closer look

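The change of 3 enzymes between S and G1-like phase differed between germ-like and somatic cells, by a test of the difference itself (edgeR's quasi-likelihood test with an interaction term, phases scored within each kind of cell), in which 6.29% of 14230 genes were called (895, or 2340 with the lot as a block). Dnmt1 changed less in germ-like than in somatic cells, by -1.0287 on the log2 scale (SE 0.15, adjusted p = 9.43e-05), and Uhrf1 likewise by -1.50668 (SE 0.18, adjusted p = 9.88e-06). Both differences were called in every alternative run. Tet3 differed by -0.988789 (SE 0.29, adjusted p = 0.0472), but not without lot 26 (-1.06, adjusted p = 0.333), without lot 30 (-0.73, adjusted p = 0.533), with total UMIs as library sizes (-0.97, adjusted p = 0.0943) or with no low-count filter (-0.90, adjusted p = 0.0701). Beside these, the summed S-phase list was at 3649 to 3723 CPM in G1-like and 5364 to 5880 CPM in S-phase germ-like cells, and at 1474 to 1509 CPM and 3830 to 4203 CPM in somatic cells. The part of that gap in the differences was not tested.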

How the results depend on the processing

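The 6 enzyme calls in germ-like against cycling, non-cycling, S-phase and G2/M-phase somatic cells were made in every alternative run. Against the mean of the 3 large classes Uhrf1 turned from -0.10 to 0.020 with RLE factors and 0.025 in DESeq2, never called. With the lot as a block, the genes called rose to 8756 (cycling against non-cycling), 7053 (S against G1-like, somatic), 2703, 5283 and 3795 (cycling within pre-granulosa-like, stromal-like and epithelial-like cells), 4176 (Stra8), 1508 (S against G1-like, germ-like) and 2340 (its difference between germ-like and somatic cells), and beyond the enzymes named in the report the block changed no call of an enzyme. Phases called without thinning gave 950 genes in pre-granulosa-like cells, and DESeq2 gave 834 for S against G1-like phase in germ-like cells.

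Leaving out 1 lot gave ranges of genes called of 2930 to 5003 (cycling against non-cycling), 1583 to 3106 (S against G1-like, somatic), 3539 to 5470 (endothelial-like), 2943 to 4446 (the S100a8/S100a9 cluster, with 2 to 6 enzymes called), 3533 to 4758 (epithelial-like against pre-granulosa-like, 2 to 3 enzymes), 2497 to 3833 (stromal-like against epithelial-like, 1 to 3), 110 to 391, 1184 to 2004 and 738 to 1234 (cycling within pre-granulosa-like, stromal-like and epithelial-like cells, with 2 to 4 enzymes in stromal-like and 2 to 3 in epithelial-like cells), 149 to 2078 (Stra8, 1 to 2), 11 to 756 (S against G1-like, germ-like, 0 to 4) and 275 to 888 (the difference between germ-like and somatic cells). Of the fold changes followed under alternatives, 1340 kept direction and side of the threshold, 41 were no longer called, 23 became called and 2 turned sign. Those followed were of enzymes called in a comparison by the main fit or with the block. Added to them were all tested enzymes in germ-like against cycling and non-cycling somatic cells, and Uhrf1 against the mean of the classes. Other uncalled fold changes are not in these counts. Germ-like against G1-like somatic cells could not be fitted with phases on a common scale, which left 6 germ-like cells there. Few UMIs limit Dnmt3b (179 in germ-like cells) and Tet3 (391), and the 21 cells of lot 29 limit the S100a8/S100a9 cluster.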
